A study of Homo sapiens with 6 samples.

Results

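Lactate handling and pH regulation were followed through 8 genes picked by name: the lactate dehydrogenases LDHA and LDHB, the monocarboxylate transporters SLC16A1 (MCT1) and SLC16A3 (MCT4), their chaperone BSG (basigin, CD147), the membrane carbonic anhydrases CA9 and CA12, and the sodium-bicarbonate cotransporter SLC4A7 (NBCn1). They were chosen with earlier results of these data known. All 8 were among the 17631 genes listed in every library, and all 8 were among the 12582 genes tested. The libraries came from MDA-MB-231, an established human triple-negative breast cancer cell line, and fell into 2 groups: 3 libraries from cells given vehicle and 3 from cells given 30 µM PDBAG1, each for 24 h. PDBAG1 is a synthetic peptide that joins a cell-penetrating sequence to a stretch of the enzyme GPD1, and the methods state that the peptides were dissolved in distilled water. The labels also call the source breast cancer tissue. A single cell line, dose and time point were sampled, and nothing in the labels says whether the 3 libraries of a group came from separate cultures, so the p values measure the spread between these libraries.

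Cells that run glycolysis quickly turn pyruvate into lactate with lactate dehydrogenase, which restores the NAD+ that glycolysis needs. Lactate leaves the cell together with a proton through monocarboxylate transporters, while carbonic anhydrases on the cell surface and bicarbonate transporters buffer the acid on both sides of the membrane. LDHA, SLC16A3 and CA9 are well-known targets of the hypoxia-inducible factors (HIFs), and the study asked, among other questions, whether the peptide turned on a hypoxia response and glycolysis under normal oxygen.

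After PDBAG1, 5 of the 8 genes were higher, 1 was lower and 2 did not pass the test. CA9, CA12, SLC16A3 and LDHA rose by 0.79, 0.65, 0.56 and 0.54 on the log2 scale, BSG rose slightly, LDHB fell, and SLC16A1 and SLC4A7 did not differ beyond their spread. A call here means an adjusted p under 0.05 in limma over all genes tested, by the Benjamini-Hochberg method. Of all genes tested, 21.7% were called higher and 15.9% lower, so single calls were common in this comparison. Under quantile normalization the balance over all genes turned, with 2404 called higher and 2742 lower, against 2736 and 2000. It also turned under median-of-ratios scaling, with 2557 called higher and 2620 lower. CA9 and CA12 also passed a fold limit of 1.5, as did 3.34% of all genes, and under quantile normalization CA9 and SLC16A3 did. In 6 of the 8 genes the values of both groups did not overlap, which held for 47.4% of all genes. CA9 entered the test only through the PDBAG1 libraries, since it had to reach a TPM of 1 in 3 libraries and did so in none of the vehicle libraries, so it had to differ.

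All levels are TPM, a unit scaled by transcript length and library total, so levels can be compared between genes. TPM keeps no sequencing depth, so depth is unknown here and no counting error can be given. Each library listed 12392 to 12611 genes at a TPM of 1 or more, and the SD of log2 differences over genes was 0.142 to 0.175 for pairs of the same group and 0.278 to 0.296 for pairs of different groups. VIM and CD44, high in this mesenchymal line, lay at 4174 to 5942 and 313 to 499 TPM, whereas ESR1, PGR, CDH1 and EPCAM stayed at or under 5.78 TPM. ERBB2 lay at 23.6 to 25.4 TPM. In bulk RNA, fewer cells with a transcript and less of it per cell cannot be told apart.

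**Figure D1:**
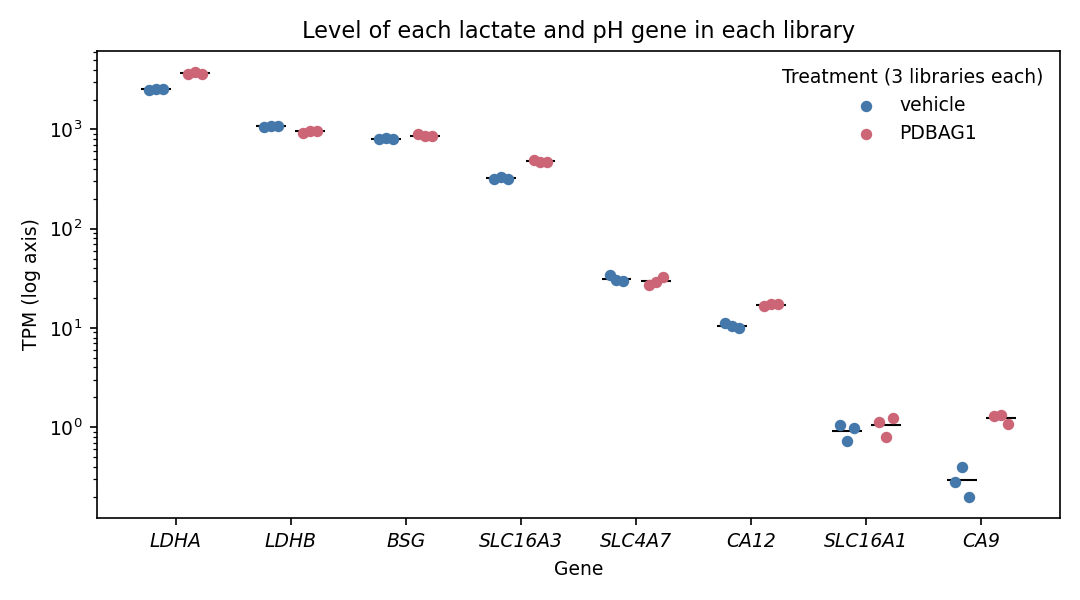
TPM of the 8 genes (log axis) in each of the 3 vehicle and 3 PDBAG1 libraries, with each point a library and each line the group mean, ordered by the vehicle mean. The genes span from about 0.2 TPM for CA9 to 3789 TPM for LDHA, and the vehicle and PDBAG1 points separate in LDHA, LDHB, BSG, SLC16A3, CA12 and CA9.

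The upstream sequences of 4 of the genes are shown: LDHA, SLC16A3 and CA9, which rose, and LDHB, which fell. CA12 and BSG also rose and are not printed. HIF binds DNA at short cores that are spelled ACGTG or GCGTG, and both were searched on both strands in windows of 300 bases, 250 before and 50 after each annotated start (RefSeq, GRCh38.p14). Capitals mark matches, which read CACGT or CACGC where the core is on the opposite strand. CACGTG holds 1 match on each strand and counts as 2. The stretches end 1 base before the start and run 5′ to 3′ on the gene's own strand, at chr11:18394313-18394562 (plus strand) for LDHA, chr12:21657843-21658092 (minus) for LDHB, chr17:82228942-82229041 (plus) for SLC16A3 and chr9:35673828-35673927 (plus) for CA9.
LDHA: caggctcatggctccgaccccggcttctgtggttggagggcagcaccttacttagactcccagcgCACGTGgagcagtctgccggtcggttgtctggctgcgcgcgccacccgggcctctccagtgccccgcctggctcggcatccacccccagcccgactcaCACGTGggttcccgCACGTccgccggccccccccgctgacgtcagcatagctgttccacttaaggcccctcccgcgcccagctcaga
LDHB: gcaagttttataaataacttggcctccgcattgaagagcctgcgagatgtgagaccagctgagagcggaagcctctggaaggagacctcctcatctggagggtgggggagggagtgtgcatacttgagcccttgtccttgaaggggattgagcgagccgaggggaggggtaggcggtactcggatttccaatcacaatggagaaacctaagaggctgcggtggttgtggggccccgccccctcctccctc
SLC16A3: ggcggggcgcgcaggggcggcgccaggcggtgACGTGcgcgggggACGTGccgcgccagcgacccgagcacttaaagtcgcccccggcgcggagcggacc
CA9: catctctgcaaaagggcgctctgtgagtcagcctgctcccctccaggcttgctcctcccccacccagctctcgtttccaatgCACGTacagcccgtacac

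LDHA has 2 annotated starts and SLC16A3 has 5, and the window printed for each is the one with the most ACGTG matches. The RefSeq starts used for LDHA, LDHB and SLC16A3 differ from the outermost starts in the gene positions given below (GENCODE v44), and that of CA9 is the same. The printed window of LDHA held 5 ACGTG matches, whose first bases lay at -185, -184, -87, -86 and -73 relative to the start. That of SLC16A3 held 2, at -68 and -55, and the single window of CA9 held 1, at -18. Of the 4 other SLC16A3 windows, 2 held no core and 2 held only GCGTG, and the other LDHA window held 1 GCGTG. LDHB had no match before its start and 1 GCGTG after it. CA12, which rose, held no ACGTG in its single window and 2 GCGTG, at -234 and 40. Such matches are frequent. At least 1 of both cores was found in 60.2% of the windows of genes tested and ACGTG in 25.2%, and counted per gene over all of its windows the shares were 69.9% and 32.3%. Of the 7 genes with a window, each had at least 1 core in at least 1 window, including SLC4A7, whose RNA was not called, and BSG, with 6 matches in 1 window. ACGTG was found for 4 of the 7, LDHA, SLC16A3, CA9 and BSG. The matches describe letters only, and binding was not measured.

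LDHA encodes the M subunit of lactate dehydrogenase, the form that favours making lactate from pyruvate (chromosome 11, 18394560 to 18408425, plus strand, GRCh38, GENCODE v44). It was the most abundant of the 8 genes. Vehicle libraries held 2469, 2566 and 2537 TPM, and PDBAG1 libraries 3615, 3789 and 3616 TPM. All 3 PDBAG1 libraries lay above all 3 vehicle libraries, and the means were 2524 ± 49.8 and 3673 ± 100 TPM (SD, n = 3 per group). The log2 fold change was 0.54 (SE 0.03, adjusted p = 3.48e-08 in limma), the 462nd highest of the 12582 genes tested. In TPM, LDHA gained 1150, more than the whole level of LDHB.

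LDHB encodes the H subunit, the form that favours turning lactate back into pyruvate (chromosome 12, 21635342 to 21757857, minus strand). Its values were 1069, 1077 and 1093 TPM with vehicle and 928, 960 and 975 TPM with PDBAG1. The order was the opposite of LDHA, with all 3 PDBAG1 libraries under the vehicle ones, at means of 1079 ± 12.1 and 954 ± 23.6 TPM (SD, n = 3 per group). The log2 fold change was -0.18 (SE 0.03, adjusted p = 0.000842 in limma), a fall of 11.6% in TPM. LDHA therefore took 70.0% ± 0.345 of the LDHA plus LDHB transcripts with vehicle and 79.4% ± 0.534 with PDBAG1 (SD, n = 3 per group), a difference of 9.33 percentage points. An exact permutation test of this share gave a two-sided p of 0.1, the smallest that 3 libraries against 3 can give. The sum of both genes was 3603 ± 57.4 TPM with vehicle and 4628 ± 107.5 TPM with PDBAG1, a quantity chosen after the values were seen. The reference annotation names 6 LDHA and 3 LDHB pseudogenes, and a readthrough gene shares 997 of the 2983 exonic bases of LDHB, so some reads of both genes may belong elsewhere.

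**Figure D2:**
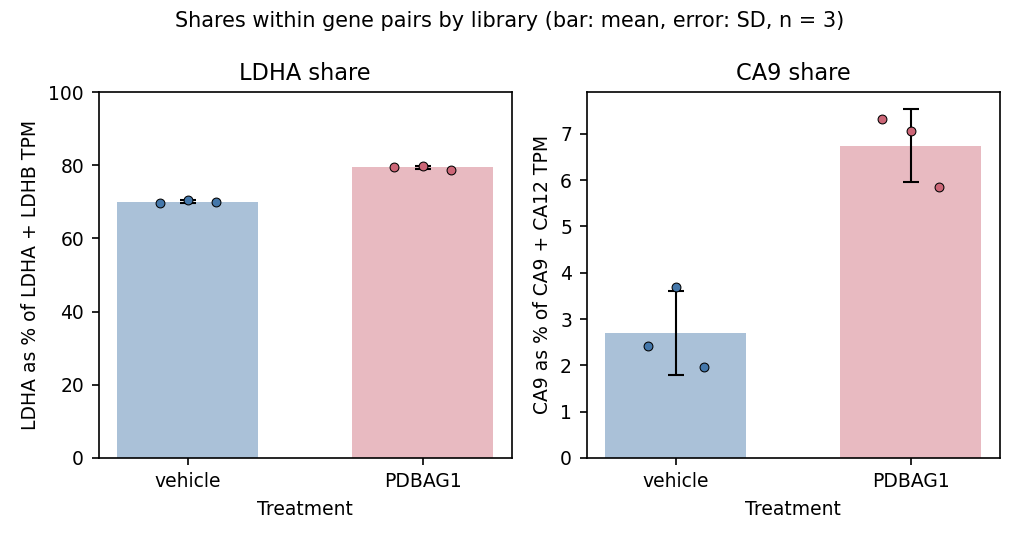
Share of LDHA in the LDHA plus LDHB TPM (left, %) and of CA9 in the CA9 plus CA12 TPM (right, %) by treatment, with bars from 0 at the mean, error bars of 1 SD and a point for each of 3 libraries. The LDHA share lies between 69.8% and 70.4% with vehicle and between 78.8% and 79.8% with PDBAG1, and the CA9 share between 1.96% and 3.70% and between 5.85% and 7.31%.

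Among the lactate transporters, SLC16A3 carried nearly all of the signal of the pair in these cells. SLC16A3 encodes MCT4, a transporter suited to lactate export from glycolytic cells (chromosome 17, 82217934 to 82261129, plus strand). It measured 317, 332 and 319 TPM with vehicle and 486, 470 and 470 TPM with PDBAG1. The groups did not overlap, and the means were 323 ± 8.02 and 475 ± 9.58 TPM (SD, n = 3; log2 change 0.56, SE 0.04, adjusted p = 8.12e-08 in limma). Its rise was close to that of LDHA, at 47.3% against 45.6% in TPM, and the 95% confidence intervals of both log2 fold changes, 0.48 to 0.63 and 0.47 to 0.61, overlapped. CSNK1D, on the opposite strand, shares 482 of the 9236 exonic bases of SLC16A3 and was called higher too, at a log2 fold change of 0.19. Its part in the value of SLC16A3 was not tested.

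SLC16A1 encodes MCT1, which moves lactate in either direction (chromosome 1, 112911847 to 112957593, minus strand). Its level was low, at 1.06, 0.73 and 0.98 TPM with vehicle and 1.12, 0.80 and 1.25 TPM with PDBAG1. The groups overlapped, and the log2 fold change was 0.09 with a 95% confidence interval of -0.19 to 0.38 (adjusted p = 0.603 in limma). Its sign turned under quantile normalization (-0.02). SLC16A3 made up 99.7% of the SLC16A1 plus SLC16A3 transcripts with vehicle and 99.8% with PDBAG1, and this share did not separate the groups (exact permutation test, two-sided p = 0.3).

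BSG, which brings both transporters to the plasma membrane (chromosome 19, 571277 to 583494, plus strand), was abundant in every library. It lay at 794, 810 and 804 TPM with vehicle and at 889, 855 and 858 TPM with PDBAG1. The lowest PDBAG1 library was above the highest vehicle library, yet the difference was small, with a log2 fold change of 0.11 (SE 0.03, adjusted p = 0.0157 in limma). The call was lost under median-of-ratios scaling (0.08, adjusted p = 0.252), without the trend of variance (0.11, adjusted p = 0.106), without vehicle replicate 3 (0.11, adjusted p = 0.0553) and without PDBAG1 replicate 1 (0.09, adjusted p = 0.052). Per transcript of the transporters SLC16A1, SLC16A3, SLC16A7 and SLC16A8, which encode MCT1 to MCT4, there were 2.43 ± 0.0340 BSG transcripts with vehicle and 1.80 ± 0.00490 with PDBAG1 (SD, n = 3 per group), a ratio chosen after the values were seen.

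CA9 and CA12 encode carbonic anhydrases whose active site faces outside the cell, where they turn carbon dioxide and water into bicarbonate and protons. CA12 (chromosome 15, 63321378 to 63381846, minus strand) was the more abundant, at 11.3, 10.4 and 10.0 TPM with vehicle and 16.6, 17.5 and 17.4 TPM with PDBAG1. The groups were well apart, at 10.6 ± 0.640 and 17.2 ± 0.476 TPM (SD, n = 3; log2 change 0.65, SE 0.07, adjusted p = 1.16e-05 in limma). Quantile normalization brought CA12 to 0.58, just under the fold limit, with the call kept.

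CA9 (chromosome 9, 35673928 to 35681159, plus strand) was barely detected with vehicle, at 0.28, 0.40 and 0.20 TPM, and reached 1.31, 1.33 and 1.08 TPM with PDBAG1. The ratio of the means, 0.293 ± 0.101 and 1.24 ± 0.139 TPM (SD, n = 3 per group), was 4.23, the largest relative difference among the 8 genes, at the lowest level. With the pseudocount of 1 the log2 fold change was 0.79 (SE 0.13, adjusted p = 0.000267 in limma), and with a pseudocount of 0.1 it was 1.79. CA9 was tested only because it reached 1 TPM in the PDBAG1 libraries, so this p value cannot serve as support for a difference. CA9 made up 2.69% ± 0.902 of the CA9 plus CA12 transcripts with vehicle and 6.75% ± 0.783 with PDBAG1 (n = 3 per group, SD; exact permutation test, two-sided p = 0.1, the smallest possible). The share rests on the same CA9 values, so its p value cannot serve as support either. ARHGEF39, on the opposite strand, shares 571 of the 1598 exonic bases of CA9, and the strand setting of the counting is not given in the sources used here. ARHGEF39 moved the other way, from 15.8 ± 0.526 to 13.5 ± 0.938 TPM (SD, n = 3; log2 change -0.22, adjusted p = 0.0285 in limma). Its part in the value of CA9 was not tested.

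SLC4A7, which brings bicarbonate into the cell together with sodium (chromosome 3, 27372721 to 27484420, minus strand), varied most between libraries among the genes above 10 TPM. It measured 34.5, 30.4 and 29.5 TPM with vehicle and 27.2, 29.2 and 33.0 TPM with PDBAG1. The groups overlapped, with means of 31.5 ± 2.69 and 29.8 ± 2.93 TPM (SD, n = 3; log2 change -0.08, 95% confidence interval -0.24 to 0.09, adjusted p = 0.468 in limma).

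**Figure D3:**
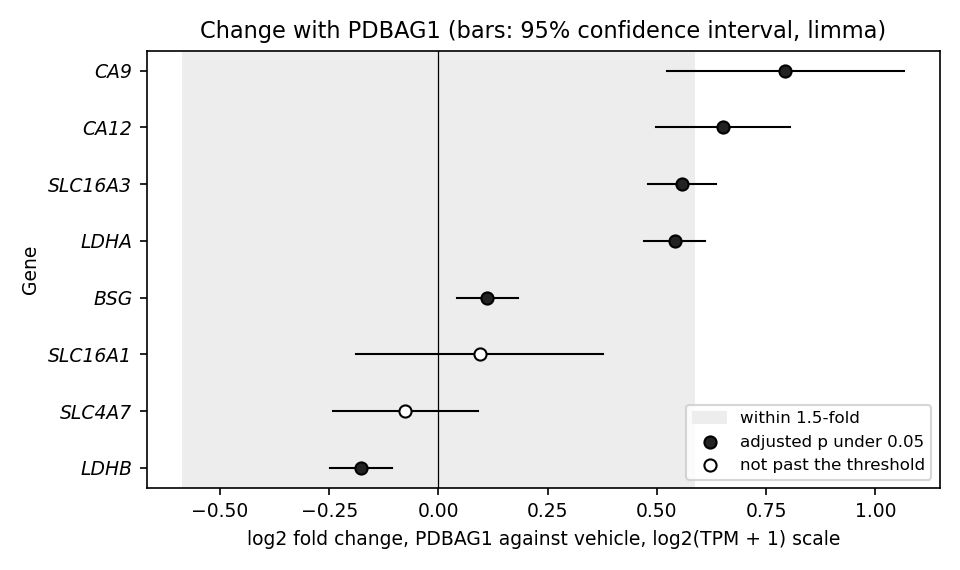
Log2 fold change of each of the 8 genes with PDBAG1 against vehicle on the log2(TPM + 1) scale, with bars for the 95% confidence interval from limma, filled points for an adjusted p under 0.05 and shading for changes within 1.5-fold. CA9 (0.79) and CA12 (0.65) lie past the shading, SLC16A3 (0.56) and LDHA (0.54) just inside it, and the intervals of SLC16A1 and SLC4A7 cross 0.

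With vehicle the levels ran in the order LDHA, LDHB, BSG, SLC16A3, SLC4A7, CA12, SLC16A1 and CA9, and no neighbours in this order overlapped in TPM. With PDBAG1 the order was the same except at its end, where CA9 had the higher mean and its values overlapped those of SLC16A1. The spread within a group was 1.02% to 2.72% of the mean for LDHA, LDHB, BSG and SLC16A3 and 34.3% for CA9 with vehicle.

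Around these genes, 94 further genes of lactate and pH handling were listed by function, of which 91 were in the table and 60 were tested. At an adjusted p under 0.05 in limma, 23 were higher and 4 were lower, or 38.3% and 6.67% of those tested, against 21.7% and 15.9% of all genes. Their median log2 fold change was 0.13, against 0.03 over all genes tested. The lists were chosen with earlier results of these data known, so these comparisons are a description and not a test of the lists. Of the 27 calls, 15 held under all 13 alternative settings, and all 27 kept their direction wherever a value could be had.

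Among enzymes and transporters of lactate and pyruvate, LDHD, the mitochondrial D-lactate dehydrogenase, rose from 1.49 ± 0.221 to 2.40 ± 0.238 TPM (SD, n = 3; log2 change 0.45, adjusted p = 0.00684 in limma). MPC1, a subunit of the carrier that brings pyruvate into mitochondria, fell from 55.8 ± 0.393 to 46.9 ± 1.32 TPM (log2 fold change -0.25, adjusted p = 0.00131 in limma). MPC2, its partner, had a log2 fold change of -0.01 and was not called. SLC16A7 (MCT2) and EMB, another transporter chaperone, were also not called, at -0.10 and -0.03. Among relatives of the lactate transporters with other or little known substrates, SLC16A13 rose by 0.61 and SLC16A5 by 0.35 on the log2 scale, and 4 of the 7 tested were not called.

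Of the 5 other carbonic anhydrases tested, CA11, a member without catalytic activity, was higher (0.28) and CA2, a cytosolic enzyme, was lower (-0.38), both at levels under 5 TPM. These shares of 20% higher and 20% lower were near the 21.7% and 15.9% of all genes tested. The call of CA2 was lost without vehicle replicate 1, vehicle replicate 3 or PDBAG1 replicate 2, and that of CA11 under 6 settings. Among 6 other bicarbonate transporters, 3 were called and all were higher (50%, against 21.7% of all genes tested). SLC26A6, an anion exchanger, rose from 27.8 ± 0.764 to 39.8 ± 0.755 TPM (SD, n = 3; log2 change 0.50, adjusted p = 8.76e-06 in limma), SLC4A3 by 0.50 and SLC4A8 by 0.37. SLC4A2, the most abundant of the 6 at 93.2 TPM with vehicle, was not called (0.07). The call of SLC4A8 was lost without vehicle replicate 2.

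Among genes of sodium-proton exchange, the exchanger SLC9A8 (0.25) and CHP1 (0.20), a cofactor of such exchangers, were higher and the exchanger SLC9A3 (-0.24) was lower. The calls of these 3 genes were each lost when at least 1 library was left out. Of the 9 genes of this list that were tested, 22.2% were higher and 11.1% lower, near the shares of all genes. Of the 22 subunits and accessory proteins of the V-ATPase proton pump that were tested, 10 were higher, 1 was lower and 11 were not called. The shares were 45.5% higher and 4.55% lower, against 21.7% and 15.9% of all genes tested, and the median log2 fold change was 0.13. Of the 10 higher calls, 5 held under all 13 alternative settings (TCIRG1, ATP6V0A1, ATP6V0B, ATP6V0C and ATP6AP1). Without PDBAG1 replicate 2, 4 of the 10 were lost, 1 was not tested and 5 held. The lower call, ATP6V0A2 (-0.19, adjusted p = 0.0467 in limma), was lost under 8 of the 13 settings. The largest rise was that of ATP6V0D2, from 0.887 ± 0.0289 to 2.63 ± 0.147 TPM (SD, n = 3; log2 change 0.94, adjusted p = 1.56e-05 in limma), which like CA9 passed the filter only through the PDBAG1 libraries. Its p value therefore cannot serve as support for a difference. It is counted among the 10 higher genes here and the 23 of the wider lists, and could not have been called lower. TCIRG1 and ATP6V0A1, which encode forms of the a subunit of the pump's membrane part, rose by 0.39 and 0.38. Of the other forms of this subunit, ATP6V0A2 was the lower call given above and ATP6V0A4 was not called (-0.03). Among 4 acid sensors tested, the receptor GPR132 (0.58) and the channel ASIC3 (0.54) were higher, and ASIC1 was not called (-0.10).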

How the data were processed

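The 6 RNA samples came from MDA-MB-231 cells, 3 given vehicle and 3 given PDBAG1. According to the methods, sequencing was done on a BGISEQ-500, with HISAT2 mapping to GRCh38.p13 and FPKM as the unit. The submitters' processing notes name HISAT2 2.0.4, Bowtie2 2.2.5, RSEM 1.2.12 and GRCh38.p12. The values the authors deposited are TPM with 2 decimals, which sum to nearly the same total in each library. Which tool made them, and whether strand was used, is not given in the sources used here. Groups followed the sample titles.

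The 12582 genes that reached 1 TPM in 3 libraries were fitted as log2(TPM + 1) with limma 3.58.1 in R 4.3.3 (lmFit, eBayes with a trend), and p values were adjusted over all of them. Fold changes on this scale understate those of low genes. Shares within gene pairs were compared by exact permutation tests. The members and lists were chosen with earlier results of these data known. Besides the 8 members, up to 3 called genes per list with the largest change were named, and some other genes of the same lists and 2 genes that overlap members were added after their values were seen. Genes most like CA9 and CA12 were found by Pearson correlation. Positions are from GENCODE v44, matched by Ensembl identifier. Alternatives were the filter, the pseudocount, scaling, the variance trend, the replicate number as a block and leaving out each library. Some genes of the lists are not reported here by name.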

Additional observations from a re-analysis of the deposited data

How the results depend on the processing

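LDHA, SLC16A3, CA12 and LDHB kept direction and call under all 13 alternatives, at 0.51 to 0.58, 0.52 to 0.59, 0.58 to 0.69 and -0.23 to -0.16 on the log2 scale. SLC16A1 turned from 0.09 to -0.015 under quantile normalization, without a call in either. The number of genes higher was 3 to 5 with each library left out, with 3 without PDBAG1 replicate 1, and the number past 1.5-fold was 1 to 2. It was 1 when every library had to reach 1 TPM, and also without any 1 of the PDBAG1 libraries, since CA9 then fails the filter. With the tested genes kept, a setting chosen after the data were seen, CA9 stayed called without each library, at 0.74 to 0.85. CA9 was among the kept genes only through its PDBAG1 values, so this setting is no support for the call. The 4 lower genes of the wider lists became 1 to 5 with each library left out, with 2 without vehicle replicate 1, 2 or 3 and 1 without PDBAG1 replicate 2. TPM keeps no depth, so counting error limits the low genes CA9 and SLC16A1 by an unknown amount.

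In a fit with a replicate block, 5 of the 8 genes were higher and 1 was lower, as without it, and of the wider lists 19 were higher and 2 were lower. Libraries with the same number did not deviate together (correlations of -0.21, 0.01 and -0.08).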

Other observations

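The tested genes with the highest Pearson correlation to CA12 on the log2(TPM + 1) scale over the 6 libraries were OPTN (0.9998), CCDC69 (0.9992) and TPP1 (0.9992), and those for CA9 were RRAGA (0.998), P4HB (0.997) and SLC37A2 (0.997). The 6 points share 2 treatment groups, so any gene that differs between them can correlate, and the values are a description. SLC37A2 had 38.5 TPM with vehicle and 65.0 TPM with PDBAG1.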
